A study of Mus musculus with 6 samples.

Results

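The genes described here carry glucose carbon from glucose 6-phosphate down to pyruvate and lactate out of the cell, in mouse fat 7 days after grafting and before grafting. They are Gpi1, Pfkl, Pfkp, Tpi1, Pgk1, Pgam1, Eno1, Pkm and Slc16a3, chosen by name, and are 9 of the 12163 genes in the deposited expression table. Although the set is labelled lower glycolysis, Gpi1, Pfkl and Pfkp act in its upper steps. The fat came from mice of the inbred strain C57BL/6, wild type in genotype, and was sequenced in 3 libraries from grafts on day 7 and 3 libraries from ungrafted fat, with biological replicates in both groups. The labels give no depot, graft site, sex or age, and any gene missing from the table was not analysed here.

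Glycolysis splits glucose into pyruvate in the cytosol and makes ATP without oxygen, and its lower steps after the aldolase split run in a near-equilibrium chain down to pyruvate kinase. Pyruvate then either enters mitochondria or is reduced to lactate, which leaves the cell with a proton through monocarboxylate transporters. In fat, glycolysis also supplies glycerol 3-phosphate and acetyl-CoA for triglyceride, and adipocytes release lactate and sense it through the receptor encoded by Hcar1. The transcription factor HIF-1, which is stabilised when oxygen is low, and MYC are known regulators of many of these genes, and activated macrophages and fibroblasts are known for high glycolysis.

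The listed genes summed to 12846005 to 15443409 normalized counts per library, and the values below are normalized read counts, in which a library's reads were scaled by 1 common factor. The table holds genes that mostly differ between the groups: an unadjusted p under 0.05 was reached by 10772 of the 10854 tested genes (99.2%). Defining fat markers were present before grafting and all 13 adipocyte markers were lower in grafts, where their summed level was 11728 to 35461 normalized counts, against 478674 to 650685 before grafting. As deposited, macrophage, fibroblast and neutrophil markers were mostly higher in grafts (13 of 14, 8 of 10 and 8 of 9 tested genes), as were all 15 proliferation markers. Of all tested genes, 41.3% were called higher and 39.2% lower. In bulk tissue a changed number of cells of a type and a changed amount of RNA per cell cannot be told apart, and this holds for every difference below.

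Promoter windows are shown for the transporter and for 4 of the enzymes. Slc16a3, Pgk1 and Pkm are the genes with the largest differences, and Pfkp and Pfkl encode isoenzymes of 1 step. The windows are RefSeq sequence on GRCm38.p6, from 250 bases before to 50 bases after an annotated start, on the gene's strand, 5′ to 3′. Capitals mark each ACGTG or GCGTG, the core letters to which HIF-1 binds, on either strand (CACGT and CACGC on the opposite one), and CACGTG holds 2 overlapping matches. Slc16a3 lies at chr11:120948817-120949116 (plus strand), Pgk1 at chrX:106186850-106187149 (plus strand), the windows of Pkm at chr9:59656326-59656625 and chr9:59656977-59657276 (plus strand), Pfkp at chr13:6648722-6649021 (minus strand) and Pfkl at chr10:78009758-78010057 (minus strand).
Slc16a3: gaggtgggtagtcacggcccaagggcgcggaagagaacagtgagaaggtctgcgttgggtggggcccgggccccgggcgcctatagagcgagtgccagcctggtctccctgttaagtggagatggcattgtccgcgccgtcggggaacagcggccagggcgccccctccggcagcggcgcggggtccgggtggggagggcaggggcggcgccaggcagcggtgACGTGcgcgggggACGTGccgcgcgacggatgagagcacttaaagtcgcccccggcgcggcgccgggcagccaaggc
Pgk1: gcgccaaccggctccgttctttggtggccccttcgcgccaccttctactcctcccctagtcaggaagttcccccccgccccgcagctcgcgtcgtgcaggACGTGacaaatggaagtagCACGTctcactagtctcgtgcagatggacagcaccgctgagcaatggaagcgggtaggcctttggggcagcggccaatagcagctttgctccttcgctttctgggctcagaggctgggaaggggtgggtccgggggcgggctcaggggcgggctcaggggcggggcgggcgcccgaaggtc
Pkm, first window: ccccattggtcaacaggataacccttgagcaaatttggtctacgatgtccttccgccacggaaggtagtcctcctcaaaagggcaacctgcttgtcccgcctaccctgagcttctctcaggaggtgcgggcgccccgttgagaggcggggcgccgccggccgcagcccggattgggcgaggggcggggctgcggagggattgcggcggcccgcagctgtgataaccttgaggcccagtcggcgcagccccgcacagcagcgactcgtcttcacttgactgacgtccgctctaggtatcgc
Pkm, second window: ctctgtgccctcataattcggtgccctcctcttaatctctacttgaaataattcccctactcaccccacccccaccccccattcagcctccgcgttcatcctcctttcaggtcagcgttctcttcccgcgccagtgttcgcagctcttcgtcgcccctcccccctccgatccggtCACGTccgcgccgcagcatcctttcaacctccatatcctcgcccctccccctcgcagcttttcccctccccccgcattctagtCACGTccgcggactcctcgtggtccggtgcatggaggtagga
Pfkp: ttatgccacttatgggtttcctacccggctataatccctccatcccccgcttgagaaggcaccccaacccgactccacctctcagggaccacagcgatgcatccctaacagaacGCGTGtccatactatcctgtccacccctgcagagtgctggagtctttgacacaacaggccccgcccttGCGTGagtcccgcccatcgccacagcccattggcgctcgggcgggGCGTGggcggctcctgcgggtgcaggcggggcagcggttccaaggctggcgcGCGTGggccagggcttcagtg
Pfkl: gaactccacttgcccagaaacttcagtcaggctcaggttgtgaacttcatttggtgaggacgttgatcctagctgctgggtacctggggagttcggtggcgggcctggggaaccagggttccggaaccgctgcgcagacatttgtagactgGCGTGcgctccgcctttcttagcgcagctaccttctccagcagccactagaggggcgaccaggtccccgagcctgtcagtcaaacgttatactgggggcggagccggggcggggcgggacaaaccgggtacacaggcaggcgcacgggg

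Slc16a3 had matches starting at positions -27 and -14 from the start, and Pgk1 at -150 and -131. Pfkp had 4, at -136, -68, -23 and 29, and Pfkl had 1, at -99. In Pkm the second window had matches at -75 and 8 and the first had none. Among genes whose windows are not shown, Pgam1 had matches at -175, -114 and -88. Eno1, the gene with the smallest difference, had matches at -230 and 9 in its first window and 2 in each of its other windows, which overlap each other. Of the 9 genes, 7 had a match in at least 1 of their windows (12 windows in all, 9 with a match), and Gpi1 and Tpi1 had none in these letters, beside 46.7% of 27025 genes and 43.8% of 32851 windows in the same table. A match describes letters in a window and not a binding site.

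Transcripts of all 9 genes were higher in grafts as deposited, although Pfkl and Eno1 turned to -0.03 and -0.14 on the log2 scale, not called, when the libraries were rescaled so that 77 ribosomal protein genes had no median change. The log2 fold change, graft over before grafting, had a median of 1.39 and ran from 0.60 for Eno1 to 7.42 for Slc16a3, while the median of all 10854 tested genes was 0.28. All 9 passed limma's moderated test on log2(value + 1) at a Benjamini-Hochberg adjusted p under 0.05, beside 41.3% of tested genes called higher, 39.2% called lower and 80.4% called in either direction. Of the 9, 7 were higher by at least 1 on the log2 scale, beside 25.6% of tested genes, and 6 stayed called under that rescaling, which also set Gpi1 at 0.31 (limma adjusted p = 0.202). In all 9 genes the 3 grafts lay above the 3 libraries from before grafting, as in 49.6% of tested genes, while all 3 grafts lay below in 48%. Together the 9 genes took 0.871%, 0.772% and 0.756% of the listed total in grafts, against 0.283%, 0.334% and 0.295% before grafting.

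**Figure D1:**
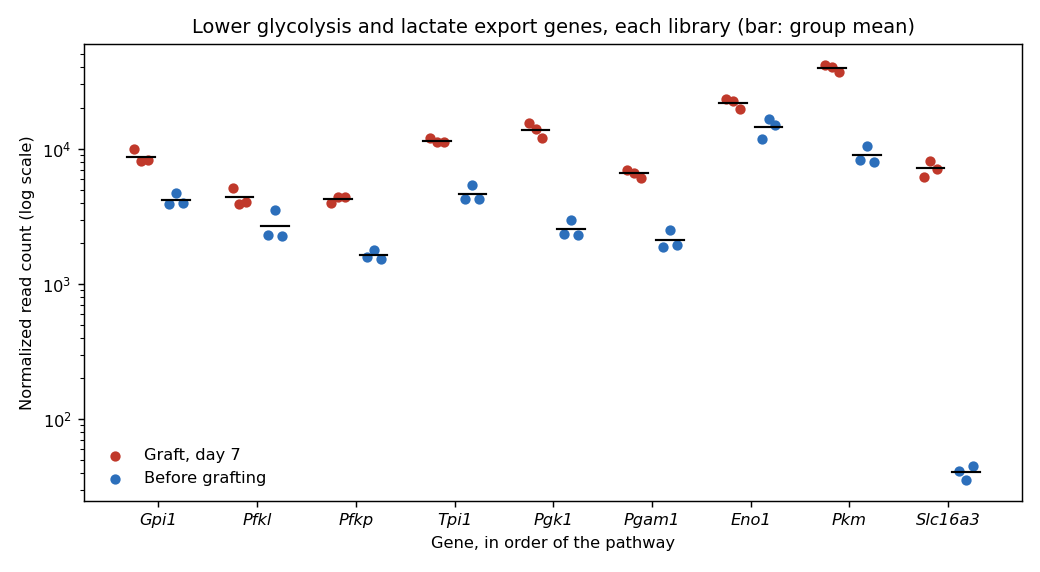
Normalized read count (log axis) of each of the 9 genes, in pathway order, in 3 graft libraries (red, left) and 3 libraries from before grafting (blue, right), with group means as bars. As deposited, the grafts lie above in each gene. On the log axis the group means are farthest apart in Slc16a3 (7154 against 40.71) and closest in Eno1 (21855 against 14503).

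The first step after hexokinase is made by glucose-6-phosphate isomerase, encoded by Gpi1 (chr7:34201330-34230336, minus strand, GRCm38, as are all gene positions below). Gpi1 had 9985, 8112 and 8221 normalized counts in grafts, against 3918, 4740 and 3959 before grafting. Every graft was above every ungrafted library, and graft replicate 1 was the highest. The log2 fold change was 1.06 (SE 0.12, limma adjusted p = 0.000472).

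Phosphofructokinase-1 commits glucose carbon to glycolysis. Its liver-type isoenzyme gene Pfkl (chr10:77986947-78010083, minus strand) had 5146, 3938 and 4062 normalized counts in grafts, against 2288, 3528 and 2281 before grafting. The groups did not overlap, but replicate 2 before grafting came close to the lowest graft. Its log2 fold change of 0.72 (SE 0.19, limma adjusted p = 0.0351) lost its call without any single library except replicate 2 before grafting (adjusted p between 0.0534 and 0.153). It also lost it with equal listed totals, equal median ratios or equal upper quartiles (0.59, 0.60 and 0.48).

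The platelet-type isoenzyme gene Pfkp (chr13:6579768-6648777, minus strand) had 3945, 4431 and 4436 normalized counts in grafts, against 1594, 1791 and 1518 before grafting. The groups were far apart, and unlike most of the set graft replicate 1 was the lowest graft. The log2 fold change was 1.39 (SE 0.10, limma adjusted p = 3.76e-05) and was 0.64 (adjusted p = 0.00626) with the ribosomal protein genes at no change. Per kb of deposited gene length, Pfkp was 27.6%, 35.9% and 35.2% of Pfkl plus Pfkp in grafts, against 25.8%, 20.2% and 24.9% before grafting. The shares did not overlap, although graft replicate 1 was near the highest share before grafting. They averaged 32.9% ± 4.6 in grafts and 23.6% ± 3 before grafting (SD, n = 3 each), and the exact two-sided permutation p was 0.1, the smallest that 3 against 3 libraries allow. The size of these shares depends on the length used. Per kb of the longest coding transcript, Pfkp averaged 1030 and Pfkl 1175 normalized counts in grafts, against 394.3 and 723.6 before grafting. That length was tried after seeing the data. Pfkm, the muscle-type gene, was not analysed here.

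**Figure D2:**
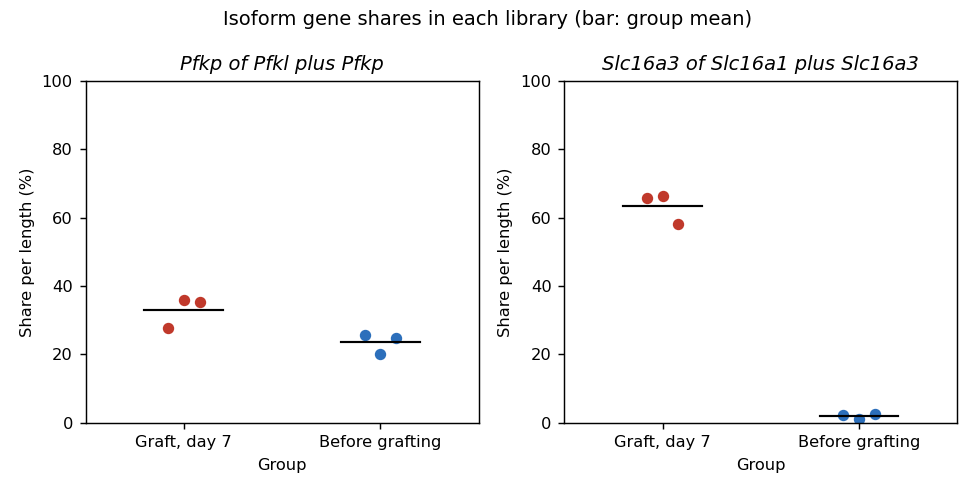
Share per kb of deposited gene length (%) of Pfkp in Pfkl plus Pfkp (left panel) and of Slc16a3 in Slc16a1 plus Slc16a3 (right panel), in 3 graft libraries (red) and 3 libraries from before grafting (blue), with means as bars. The means were 32.9% in grafts against 23.6% before grafting for Pfkp, and 63.5% against 2.05% for Slc16a3.

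Triosephosphate isomerase, encoded by Tpi1 (chr6:124810586-124814296, minus strand), turns the other product of aldolase into glyceraldehyde 3-phosphate. Tpi1 had 12033, 11254 and 11251 normalized counts in grafts, against 4276, 5421 and 4248 before grafting. The grafts were close to each other and all above the ungrafted libraries. The log2 fold change was 1.32 (SE 0.12, limma adjusted p = 0.000112).

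Phosphoglycerate kinase, the first step that returns ATP, is encoded by Pgk1 (chrX:106187100-106203699, plus strand). Pgk1 had 15502, 14107 and 12089 normalized counts in grafts, against 2341, 2962 and 2317 before grafting. The lowest graft was well above the highest ungrafted library. Its mean was 5.472 times as high in grafts, with a log2 fold change of 2.45 (SE 0.14, limma adjusted p = 1.04e-05).

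Pgam1 encodes phosphoglycerate mutase, which moves the phosphate ahead of enolase (chr19:41911871-41918664, plus strand). Pgam1 had 7012, 6609 and 6101 normalized counts in grafts, against 1884, 2493 and 1953 before grafting. The groups were separate, and the log2 fold change was 1.65 (SE 0.13, limma adjusted p = 4.89e-05).

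Enolase 1, which forms phosphoenolpyruvate, is encoded by Eno1 (chr4:150236721-150248879, plus strand), the member with the smallest difference. Eno1 had 23328, 22501 and 19735 normalized counts in grafts, against 11827, 16686 and 14996 before grafting. The groups did not overlap, and replicate 1 before grafting was the lowest library. The log2 fold change of 0.60 (SE 0.15, limma adjusted p = 0.0233) lost its call without graft replicate 1, graft replicate 2, replicate 1 before grafting or replicate 3 before grafting (adjusted p between 0.0577 and 0.0904). It also lost it with equal median ratios or equal upper quartiles (0.49 and 0.37).

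Pkm encodes the muscle and M2 splice forms of pyruvate kinase, the last step to pyruvate, which counts per gene do not separate (chr9:59656368-59679375, plus strand). Pkm had 41891, 40032 and 37142 normalized counts in grafts, against 8198, 10528 and 8056 before grafting. Its groups lay far apart, with the lowest graft well above the highest ungrafted library. The mean was 4.446 times as high in grafts, with a log2 fold change of 2.16 (SE 0.13, limma adjusted p = 1.45e-05).

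The largest difference was in Slc16a3, which encodes MCT4, a transporter known for exporting lactate from highly glycolytic cells (chr11:120948480-120960868, plus strand). Slc16a3 had 6159, 8186 and 7117 normalized counts in grafts, against 41.41, 35.46 and 45.25 before grafting. Its low level before grafting was similar in all 3 libraries. The mean was 175.8 times as high in grafts, with a log2 fold change of 7.42 (SE 0.14, limma adjusted p = 3.42e-07), and of 6.68 with the ribosomal protein genes at no change.

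Slc16a1 encodes MCT1, the more widely used monocarboxylate transporter, which carries lactate in either direction. Slc16a1 had 2682, 3437 and 4236 normalized counts in grafts, against 1399, 2626 and 1393 before grafting. The lowest graft was just above replicate 2 before grafting. The log2 fold change of 0.98 (SE 0.27, limma adjusted p = 0.0424) lost its call without graft replicate 2, graft replicate 3, replicate 1 before grafting or replicate 3 before grafting. It was 0.23, not called, with the ribosomal protein genes at no change. Per kb, Slc16a3 was 65.7%, 66.5% and 58.3% of Slc16a1 plus Slc16a3 in grafts, against 2.4%, 1.11% and 2.63% before grafting. The shares averaged 63.5% ± 4.5 in grafts and 2.05% ± 0.82 before grafting (SD, n = 3 each, exact two-sided permutation p = 0.1, the smallest possible).

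**Figure D3:**
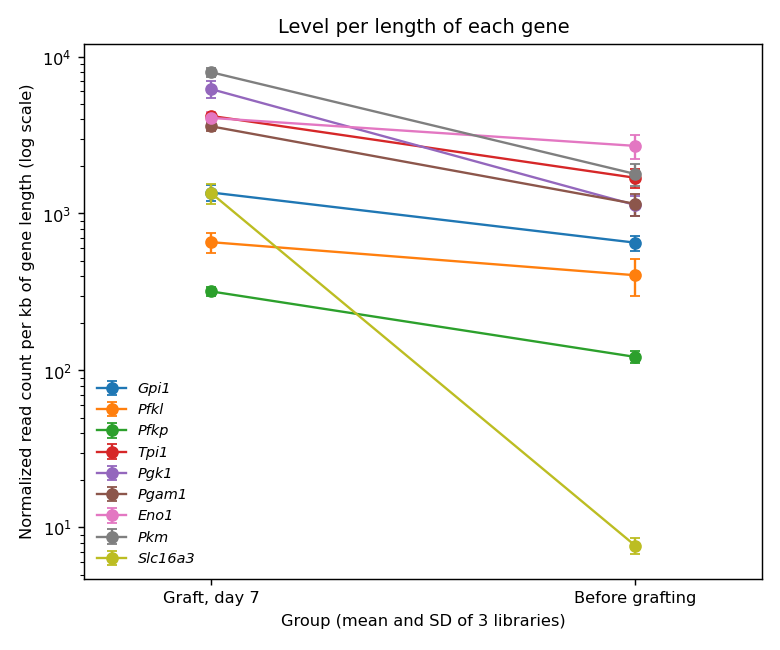
Mean normalized read count per kb of gene length (log axis) of the 9 genes in grafts (left) and before grafting (right), with the SD of 3 libraries as bars. On this deposited length Slc16a3 stood at 1345 in grafts, beside Gpi1 at 1360, and was the lowest of the 9 before grafting at 7.654.

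The order of the levels per kb of deposited gene length differed between the groups, and parts of it depended on the length used. In grafts Pkm was first with 7936 ± 478.5 normalized counts per kb and Pgk1 second with 6194 ± 764.6 (SD, n = 3), and before grafting Eno1 was first with 2696 ± 458.6 and Pkm second with 1785 ± 277.6. Pfkp had the lowest level in grafts at 318.7 ± 21.04 per kb, and Slc16a3 before grafting at 7.654 ± 0.9277. In grafts the ranges of the neighbours Tpi1 and Eno1, Eno1 and Pgam1, and Gpi1 and Slc16a3 overlapped, and before grafting those of Pkm and Tpi1 and of Pgam1 and Pgk1. The deposited length of several genes was far above that of the longest coding transcript, with 13401 against 4145 bases for Pfkp and 5379 against 2027 for Eno1. Per kb of the longest coding transcript, a length tried after seeing the data, Pkm stayed first in grafts at 16320 ± 984, Eno1 came second at 10780 ± 928.3, and Pgk1 followed at 7616 ± 940.2. Before grafting Eno1 and Pkm stayed first and second on that length, and Slc16a3 last at 9.39 ± 1.138. In grafts Slc16a3 then lay below Gpi1 without overlap (1650 ± 233.9 and 3042 ± 364.5), and Pfkl and Pfkp overlapped.

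Within groups the libraries took a similar order in most of the genes. Replicate 2 before grafting was the highest ungrafted library in 8 of the 9 genes, Slc16a3 being the exception. Graft replicate 1 was the highest graft in 7, Pfkp and Slc16a3 being the exceptions. This order was not counted over all tested genes, so it cannot be called a trait of the set. Replicate 2 also had the largest listed total before grafting (14422886, against 12846005 and 13348732), while graft replicate 1 had the smallest of the grafts (14349266). Among 7715 other listed genes with a mean of at least 100, the patterns closest over the 6 libraries to the mean log2 value of the set included those of Adamts7 (Pearson r = 0.9999), Morf4l2 (0.9997), Slc31a1 (0.9993) and Atp6v1b2 (0.9993). Since 3 of the 6 libraries are grafts and 3 are not, r mainly follows the difference between groups, and 509 genes had an r over 0.99.

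The same direction across scalings held for 7 of the 9 genes. Pfkp, Tpi1, Pgk1, Pgam1, Pkm and Slc16a3 were called higher under all 5 scalings, and Gpi1 under 4.

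**Figure D4:**
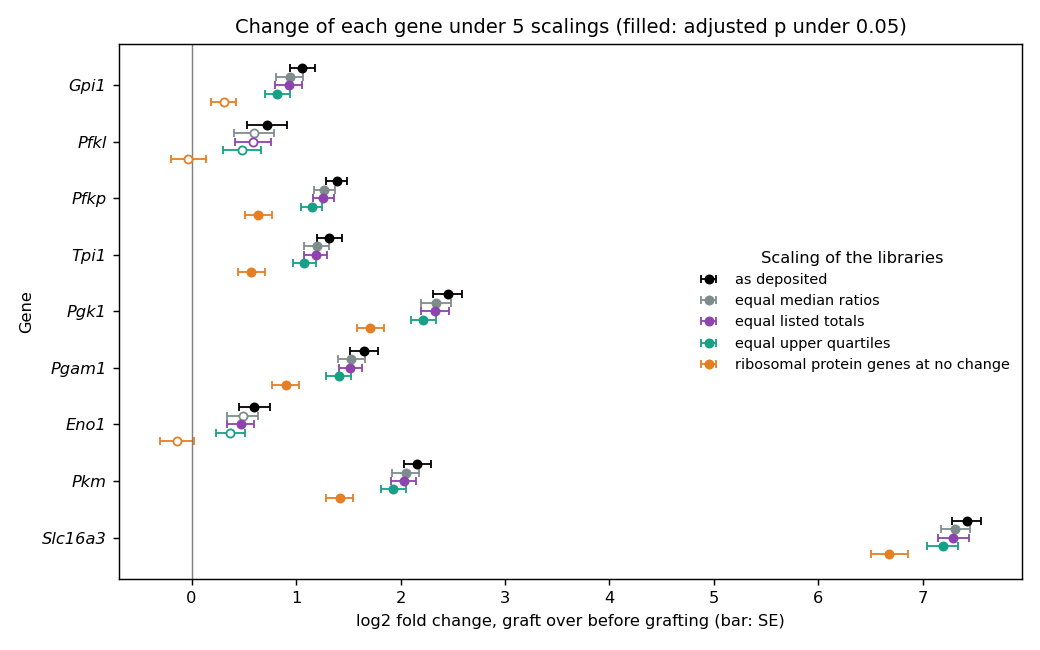
Log2 fold change, graft over before grafting, of each gene under 5 scalings of the libraries, with the SE as bars and filled points for an adjusted p under 0.05. Pfkl and Eno1 lie at -0.03 and -0.14 with the ribosomal protein genes at no change, and Slc16a3 lies at 6.68 or above under every scaling.

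Related genes share sequence with some of the 9. Of the 50-base windows of the longest coding transcript, 72.2% in Eno1, 68% in Pgk1, 41.5% in Pgam1, 34.4% in Pkm, 19.3% in Gpi1 and 7.51% in Tpi1 also occurred in annotated transcripts of other genes, against 0.0543% in Pfkl and 0% in Pfkp and Slc16a3. How the authors' counting treated reads that match several genes is not given, and the values of the first 6 are uncertain to that extent. The listed copies Pgam1-ps2, Tpi-rs11 and Pgk1-rs7 had 81.44 ± 13.02, 108.2 ± 25.85 and 47.08 ± 16.85 normalized counts in grafts, against 14.88 ± 3.797, 43.03 ± 3.931 and 10.64 ± 3.071 before grafting (SD, n = 3), and limma called all 3 higher. Annotated genes also overlap Gpi1, Pfkp and Tpi1 on the opposite strand and Pkm on the same strand, and whether counting used strand is not given.

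Outside the 9 genes, 9 lists with 134 related genes in all were counted. Of these 89 were among the deposited genes and 86 were tested, of which 27 were higher and 50 lower in grafts. The counts therefore cover part of each list. The deposited genes held 11 of 17 glucose entry and hexokinase genes, 8 of 20 other glycolytic enzymes and 4 of 5 fructose 2,6-bisphosphate enzymes. They also held 15 of 19 transporters and partners, 14 of 15 genes of mitochondrial pyruvate use and 11 of 19 regulators. Each list stands beside the shares of all tested genes, 41.3% called higher and 39.2% called lower as deposited. In the glucose entry and hexokinase list 6 of 11 tested genes were higher and 5 lower, with a median log2 fold change of 1.52. Slc2a1, the widely expressed glucose transporter, averaged 5815 ± 491.9 normalized counts in grafts and 323.1 ± 34.61 before grafting, and limma gave a log2 fold change of 4.17 (adjusted p = 6.76e-07). Slc2a4, the insulin-responsive transporter of fat and muscle, averaged 44.88 ± 24.96 in grafts and 4152 ± 658.6 before grafting (-6.63, adjusted p = 9.84e-06). Of the hexokinases, which trap glucose as glucose 6-phosphate, Hk1 and Hk3 were higher by 1.67 and 4.22.

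Among other glycolytic enzymes 4 of 8 tested genes were higher and 3 lower (median 0.55, or -0.19 with the ribosomal protein genes at no change), and with each of the other 4 scalings 2 were higher and 3 lower. Aldoc, a brain-type aldolase, had 263.3 ± 40.88 normalized counts in grafts and 9.269 ± 3.134 before grafting, a log2 fold change of 4.72 (limma adjusted p = 1.59e-05). Gapdh, the step between Tpi1 and Pgk1, had 562.5 ± 57.2 in grafts and 97.89 ± 20.54 before grafting (2.53, adjusted p = 3.91e-05), although 82.5% of its windows occur in 218 other annotated genes. Ldhb, whose subunit favours turning lactate into pyruvate, had 196.9 ± 38.43 in grafts and 806.4 ± 127.7 before grafting (-2.03, adjusted p = 0.000102). Aldoa, Ldha and Hk2 were not analysed here.

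The enzymes that make and break fructose 2,6-bisphosphate, the strongest activator of phosphofructokinase-1, were split, with 2 of 4 higher and 2 lower, or 1 and 2 with the ribosomal protein genes at no change. Pfkfb3 averaged 11475 ± 3220 normalized counts in grafts and 4376 ± 350.1 before grafting, a log2 fold change of 1.36 (limma adjusted p = 0.00109) that was 0.61 and not called with the ribosomal protein genes at no change. Pfkfb1, a liver-type gene, had 47.27 ± 18.42 in grafts and 1196 ± 194.2 before grafting (-4.68).

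Among other monocarboxylate transporters and their partners 7 of 14 tested genes were higher and 4 lower (median -0.16), and with the ribosomal protein genes at no change 2 were higher and 7 lower. Bsg, the chaperone that brings MCT1 and MCT4 to the membrane, averaged 9813 ± 689.2 normalized counts in grafts and 5229 ± 732.5 before grafting (0.91, limma adjusted p = 0.00104, and 0.17, not called, with the ribosomal protein genes at no change). Emb, a related chaperone, averaged 5230 ± 568.2 in grafts and 437 ± 80.24 before grafting (3.59, adjusted p = 2.96e-06). Slc16a7, which encodes MCT2, averaged 203.9 ± 20.04 in grafts and 1333 ± 98.72 before grafting (-2.70, adjusted p = 3.86e-06). Hcar1, the lactate receptor of adipocytes, averaged 52.81 ± 36.96 in grafts, or 72.3 without graft replicate 3, and 3043 ± 640.1 before grafting (-6.14, adjusted p = 0.000211).

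Genes of mitochondrial pyruvate use were mostly lower in grafts, with 12 of 14 tested genes lower and 1 higher (median -2.06), and with the same counts under all 5 scalings. Mpc1, a subunit of the mitochondrial pyruvate carrier, averaged 149.9 ± 11.19 normalized counts in grafts and 958 ± 162.9 before grafting (-2.66, limma adjusted p = 1.2e-05). Pdha1, a catalytic subunit of pyruvate dehydrogenase, averaged 1672 ± 65.41 in grafts and 8988 ± 1838 before grafting (-2.41, adjusted p = 1.31e-05). Pcx, the pyruvate carboxylase that feeds lipid synthesis in adipocytes, averaged 436.2 ± 178.1 in grafts and 31795 ± 6704 before grafting (-6.24, adjusted p = 4.17e-06). Pdk3, a kinase that turns pyruvate dehydrogenase off, was the 1 called higher, with 476.9 ± 20.31 in grafts and 176.1 ± 37.95 before grafting (1.45, adjusted p = 0.000468). Pdk2 and Pdk4, which encode kinases of the same enzyme, were called lower and had higher levels than Pdk3 before grafting. Pdk2 averaged 195.7 ± 27.41 in grafts and 1695 ± 367.8 before grafting (-3.10), and Pdk4 445.3 ± 194 and 1826 ± 407.9 (-2.10).

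**Figure D5:**
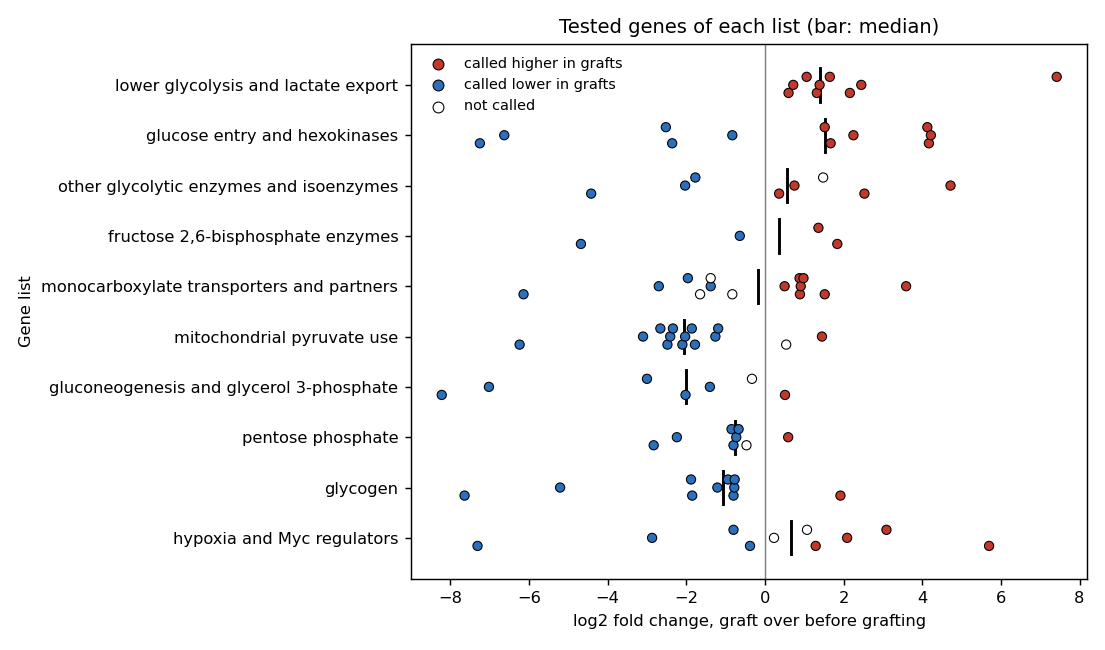
Log2 fold change, graft over before grafting, of the tested genes of the 9 and of each related list (red called higher, blue called lower, white not called), with the list median as a bar. The medians run from 1.52 for glucose entry and 1.39 for the 9 genes to -2.06 for mitochondrial pyruvate use.

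Of the hypoxia and Myc regulators 4 of 10 tested genes were higher and 4 lower (median 0.65), or 3 and 5 with the ribosomal protein genes at no change. The counts as deposited were near the shares of all tested genes (41.3% higher and 39.2% lower). Hif1a, which encodes the oxygen-sensitive subunit of HIF-1, averaged 13266 ± 2432 normalized counts in grafts and 1541 ± 121 before grafting (3.09, SE 0.15, limma adjusted p = 5.24e-06). Egln3, a HIF prolyl hydroxylase, averaged 2881 ± 637.3 in grafts and 54.25 ± 11.29 before grafting (5.70, adjusted p = 1.65e-06). Myc averaged 927.3 ± 239 in grafts and 373 ± 61.38 before grafting (1.29, adjusted p = 0.00199, and 0.55, not called, with the ribosomal protein genes at no change). Mxi1, a MYC antagonist, was the other one called higher (2.09).

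The 4 regulators called lower were Epas1, Mlxipl, Hif3a and Hif1an. Epas1, which encodes HIF-2 alpha, averaged 5840 ± 1436 in grafts and 10023 ± 1550 before grafting (-0.80, limma adjusted p = 0.0218), and it lost its call without graft replicate 2, replicate 2 before grafting or replicate 3 before grafting. Mlxipl, a glucose-sensing transcription factor of lipid synthesis, averaged 29.53 ± 25.37 in grafts and 2579 ± 765.9 before grafting (-7.31, limma adjusted p = 0.00255), or between -8.15 without graft replicate 3 and -5.81 without graft replicate 2. Hif3a (-2.87) lost its call without any single library except graft replicate 1, and Hif1an (-0.38), which encodes a HIF hydroxylase, without any single library.

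Markers of several cell types moved in the same comparison as the 9 genes. The summed level of the macrophage list (14 of 16 genes listed, Lyz2 highest) was 272965 to 307902 normalized counts in grafts, against 24824 to 28535 before grafting. The fibroblast list (10 of 11, Col3a1 highest) summed to 840168 to 1382665 in grafts, against 135010 to 174377 before grafting, although Dpp4 was called lower and Lum was not called. The neutrophil list (9 of 12, S100a9 highest, Ly6g and Elane at 0 in at least 1 library) summed to 58340 to 93634 in grafts, against 764.8 to 914.8 before grafting. Elane was called lower in grafts (log2 fold change -3.76). The summed ranges of the macrophage, fibroblast and neutrophil lists did not overlap between the groups. The proliferation list (15 of 15, Mki67 highest) summed to 11548 to 14689 in grafts, against 3042 to 4427 before grafting. With the ribosomal protein genes at no change 12 of its 15 genes were called higher. Under that scaling 7 of 10 fibroblast, 13 of 14 macrophage and 8 of 9 neutrophil markers were called higher. The red cell and platelet list (3 of 8, Pf4 highest, with Pf4 and Ppbp called higher and Itga2b called lower) summed to 3718 to 13811 in grafts, against 625.6 to 714.9 before grafting. All 3 are platelet genes, and the red cell genes were not analysed here. The lymphocyte list (9 of 9, Cd79a highest) summed to 345.5 to 806.9 in grafts, against 6666 to 12949 before grafting, and the endothelial list (4 of 10, Kdr highest) to 4046 to 5200, against 8413 to 10729. Of 12 skeletal muscle genes only Pgam2 was listed, with 38.16, 44.61 and 238.4 in grafts, against 24.65, 20.26 and 35.41 before grafting, and it was not called. The part of these cell types in the levels of the 9 genes was not tested.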

How the data were processed

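RNA was extracted with Trizol and made into Illumina libraries, per the labels' protocols. The authors deposited a signal per gene, namely read counts scaled by 1 factor for each library. This was inferred from the values, 100% of which were whole multiples of 1 step (0.96979 to 1.01304, within 0.01 reads). The deposited gene length, in bases (other unit), was used for levels per kb. Bowtie 0.12.2, HISAT2 2.0.5, mm8 and mm9 are named in the submitters' processing notes, but positions in the table fit GRCm38, since GENCODE M21 holds 12151 of the 12163 genes, 12029 of them within 1000 bp. The counter, strand use, gene filter and normalization tool were not given in the sources used here.

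The normalized totals of 12846005 to 15443409 cover listed genes only, so the full depth is unknown, and limma's variance prior rests on genes that mostly differ. Log2(value + 1) was fitted with limma 3.58.1 (R 4.3.3, mean trend, robust), with group as the only term, keeping genes that reached 10 in 3 or more libraries. Its two-sided p-values were adjusted by Benjamini-Hochberg over 55450 annotated genes, with genes that were not tested entered at the highest possible p-value, and the threshold was 0.05. The ± is the SD, and log2 fold changes understate low genes because of the pseudocount. Shares were tested by exact permutation (numpy 2.4.6, pandas 2.3.3, Python 3.11.15), and figures drawn with matplotlib 3.10.9. The limma script was tested on simulated data in which most genes did not change. Most deposited genes do differ, so that test cannot show how the variance prior behaves here.

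The genes and lists were chosen with earlier results of these data known. Genes named are the 9, genes of the related lists with their values, the 5 most alike and the highest marker of each list, and 1 gene that the rule names is not reported here. All 9 were found in RefSeq's promoter table. The replicate numbers of the titles were not used as pairs. Alternatives were other scalings, pseudocounts, filters, variance models, adjustments, a replicate block and each library left out.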

Additional observations from a re-analysis of the deposited data

How the results depend on the processing

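The median change of all tested genes was 0.28 as deposited, 0.17 with equal median ratios, 0.15 with equal listed totals, 0.05 with equal upper quartiles and -0.46 with the ribosomal protein genes at no change. The share of calls that were higher was 51.3%, 44.7%, 43.6%, 39.8% and 26.2% in that order. The last scaling gave 1935 genes higher (4479 as deposited) and 5463 lower (4251), and among the related lists 16 higher (27) and 56 lower (50). It also turned Pfkl to -0.03 and Eno1 to -0.14, and the cause was not tested. Of the 9 genes, 9 were called as deposited, 7 with equal median ratios, 8 with equal totals, 7 with equal upper quartiles, 6 with the ribosomal scaling and 7 without a mean trend or robust prior. Other pseudocounts (0.5 and 5), filters and the adjustment over tested genes alone left all 9 called.

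Leaving out each library in turn gave 7 to 9 of the 9 genes called, 3752 to 4130 genes higher and 3326 to 4014 lower, and 21 to 26 higher and 42 to 49 lower in the related lists. The difference in share, graft minus before grafting, ranged from 7.59 to 12 percentage points for Pfkp and from 59.9 to 64 for Slc16a3. Without length division these differences were 11.3 and 65.1. With the longest coding transcript as length, an alternative chosen after seeing the data, they were 11.1 and 65.5.

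The replicate block gave 3912 genes higher and 3644 lower, 8 of the 9 genes called (Pfkl 0.72, adjusted p = 0.0831), 24 higher and 44 lower in the related lists, and a paired sign-flip p of 0.25 for both shares, the smallest that 3 pairs allow. Once group means were removed, libraries of the same title number correlated at -0.157, -0.127 and 0.041. Graft replicate 1 correlated best with replicate 2 before grafting (0.169). With 3 libraries per group, these correlations cannot decide whether equal numbers mark pairs. The planned count models were not run. A check of units did not accept the recovered reads of graft replicates 1 and 3, although all their values were whole multiples of a step. Their steps, 1.00432 and 0.98919, were the closest to 1 of all libraries. The normalized totals cover listed genes only, which limits what can be said of depth.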

Other observations

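Side branches of glycolysis were mostly lower in grafts, and these values stand without explanation. Of 18 glycogen genes 11 were listed and 10 tested, of which 9 were lower and 1 higher (median -1.07), with the same counts under all 5 scalings. Among all tested genes 39.2% were called lower and 41.3% higher as deposited. Pygb, a glycogen phosphorylase, averaged 1200 ± 32.5 normalized counts in grafts and 4315 ± 156.6 before grafting (SD, n = 3, log2 fold change -1.85, limma adjusted p = 4.17e-06), and Gbe1, the branching enzyme, 717.3 ± 230.2 in grafts and 2591 ± 476.3 before grafting (-1.88, adjusted p = 0.000609). The phosphoglucomutase genes carry older symbols in the deposited table, which the gene name table used here gives the other way round. The gene deposited as Pgm2 (ENSMUSG00000025791, now Pgm1), whose enzyme links glycogen to glucose 6-phosphate, averaged 1700 ± 203.9 in grafts and 3254 ± 308.6 before grafting (-0.94, limma adjusted p = 0.000739). The gene deposited as Pgm1 (ENSMUSG00000029171, now Pgm2), whose human counterpart acts mainly on pentose phosphates, was the 1 called higher, with 881.6 ± 11.44 in grafts and 232.4 ± 22.46 before grafting (1.92, limma adjusted p = 1.35e-05).

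Of 11 pentose phosphate genes 8 were listed and tested, of which 6 were lower and 1 higher (median -0.77). Tkt, a transketolase, averaged 4077 ± 582.7 normalized counts in grafts and 29118 ± 5826 before grafting (-2.83, limma adjusted p = 1.31e-05). Pgd, which makes NADPH, averaged 6495 ± 274.1 in grafts and 4347 ± 673.5 before grafting (0.59, adjusted p = 0.0122), and it lost its call without graft replicate 2 (adjusted p = 0.0549) and lay at -0.16, not called, with the ribosomal protein genes at no change. With equal upper quartiles or the ribosomal protein genes at no change 0 of the pentose phosphate genes were called higher. Of 10 genes of gluconeogenesis and glycerol 3-phosphate 7 were listed and tested, of which 5 were lower and 1 higher (median -2.02). With equal listed totals, equal upper quartiles or the ribosomal protein genes at no change 6 were lower and 0 higher. Gpd2, the mitochondrial glycerol 3-phosphate dehydrogenase, averaged 823.3 ± 64.93 in grafts and 3407 ± 848.5 before grafting (-2.02, adjusted p = 9.16e-05).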
